A study of Mus musculus with 20 samples.

Results

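The 10 genes described here encode transcription factors that mark position in the embryo, and they were followed in mouse embryonic fibroblasts (MEFs) with and without PML, the scaffold protein of PML nuclear bodies. They were Tbx4, Tbx5, Tbx15, Tbx18, Pitx1, Hand2, Shox2, Prrx1, Twist1 and Emx2. The genes were chosen by name, with earlier results of these data known. All 10 were listed in each of the 4 RNA tables, which shared 22593 genes. Cells came from wild-type (WT) mice and from Pml-null mice (KO) on a C57BL/6 background, were proliferating and untreated, and were at passage 10 to 15. Chromatin immunoprecipitation (ChIP) of H3K27me3, H3K9me3, H3, PML and tagged histone variant H3.3 gave 12 lists of called regions, 1 library per target and genotype. For the H3.3 libraries the cells had been nucleofected with plasmids for H3.3 carrying a Flag or an HA tag, and for RNA they had not. RNA came from 3 numbered samples per genotype, which the authors had pooled into 1 table per genotype, and from 1 unnumbered sample per genotype. The labels give neither the deleted part of Pml, nor the body region and number of embryos behind the fibroblasts, nor any link between RNA and ChIP cultures. No value had a replicate, so all differences below are between single libraries or pooled tables, without a test, and read depth was unknown. The pooled WT table had an FPKM of 19.5 for Xist and 0.0384 for the Y-linked gene Ddx3y, against 0.0517 and 7.67 in the pooled KO table, so genotype and sex of the cells cannot be told apart in that pair. In the unnumbered pair both genes were present in both genotypes (Xist 5.89 and 8.25, Ddx3y 21.7 and 11.4). Pml itself was at 15.0 in WT and 10.2 in KO in the pooled tables, and at 7.62 and 4.22 in the unnumbered ones, so its FPKM over the whole gene did not mark the genotype.

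Position in the embryo is written into mesenchyme by transcription factors that are switched on in a limb bud, a trunk region or the head and are partly kept by fibroblasts in culture. Tbx5 specifies the forelimb, while Tbx4 and Pitx1 mark the hindlimb, where Pitx1 acts upstream of Tbx4. Hand2 acts in the posterior limb bud, upstream of Sonic hedgehog, and Shox2 in the proximal limb skeleton. Prrx1 and Twist1 are active throughout early limb and craniofacial mesenchyme. Tbx15 and Tbx18 act in the mesenchyme of the trunk, shoulder girdle and skin, and Emx2 in the shoulder blade, the urogenital tract and the forebrain. In cells where such genes are off they are classic targets of Polycomb complexes, which deposit H3K27me3 over the gene and its surroundings. H3.3 is deposited over transcribed genes, and H3K9me3 is a mark of heterochromatin.

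Promoters of this family tend to be rich in CpG, the base pair step at which Polycomb complexes often sit in mammals, and the 250 bases before the transcript start are shown for the 5 genes on which the chromatin results turn. RefSeq (GRCm38.p6, the assembly of mm10) had a promoter entry for 7 of the 10 genes, and Tbx5, Tbx15 and Pitx1 had none. The sequences run 5′ to 3′ towards the start, and capitals mark each CpG. Emx2 is shown because its H3K27me3 differed between genotypes, Twist1 and Prrx1 because they lay under H3.3-Flag, and Hand2 and Shox2 because they lay under H3K27me3 in both genotypes.
Emx2 (chr19:59458440-59458689, plus strand): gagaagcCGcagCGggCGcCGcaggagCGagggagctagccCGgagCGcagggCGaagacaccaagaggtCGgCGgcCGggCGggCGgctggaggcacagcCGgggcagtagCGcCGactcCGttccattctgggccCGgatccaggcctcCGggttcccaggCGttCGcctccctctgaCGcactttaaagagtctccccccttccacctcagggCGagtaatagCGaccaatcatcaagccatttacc
Twist1 (chr12:33957421-33957670, plus strand): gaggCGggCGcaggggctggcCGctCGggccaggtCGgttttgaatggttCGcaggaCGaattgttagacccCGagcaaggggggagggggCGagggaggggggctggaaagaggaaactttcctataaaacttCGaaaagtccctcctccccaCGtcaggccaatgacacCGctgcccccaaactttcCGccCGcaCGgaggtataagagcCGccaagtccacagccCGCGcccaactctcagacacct
Hand2 (chr8:57320733-57320982, plus strand): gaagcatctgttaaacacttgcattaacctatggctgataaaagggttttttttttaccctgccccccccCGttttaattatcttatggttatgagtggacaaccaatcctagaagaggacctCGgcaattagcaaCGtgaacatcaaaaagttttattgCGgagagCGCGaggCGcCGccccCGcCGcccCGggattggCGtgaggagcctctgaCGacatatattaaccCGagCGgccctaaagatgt
Shox2 (chr3:66981772-66982021, minus strand): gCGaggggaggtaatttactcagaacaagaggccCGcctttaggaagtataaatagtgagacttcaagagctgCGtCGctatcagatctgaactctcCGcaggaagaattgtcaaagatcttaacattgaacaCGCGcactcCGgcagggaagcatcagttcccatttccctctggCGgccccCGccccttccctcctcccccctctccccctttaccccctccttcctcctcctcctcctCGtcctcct
Prrx1 (chr1:163313651-163313900, minus strand): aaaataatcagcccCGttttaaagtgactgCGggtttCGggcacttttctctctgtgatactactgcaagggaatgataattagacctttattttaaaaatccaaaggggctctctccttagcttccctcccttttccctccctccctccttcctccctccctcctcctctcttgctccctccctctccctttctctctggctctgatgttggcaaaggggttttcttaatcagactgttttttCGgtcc
The Emx2 window held 24 CpG, and 15.0% of the 17274 windows of protein-coding genes held as many or more. Twist1 had 18 (29.0% of windows with as many or more), Hand2 15 (37.1%), Shox2 11 (48.4%) and Prrx1 4 (71.0%). The median over all windows was 10. Of the genes not printed, Tbx18 had 15 and Tbx4 6. The Twist1 and Prrx1 windows, both in H3.3-Flag regions in both genotypes, stood on opposite sides of that median. The start used for Prrx1 (163313650, minus strand) lies inside its annotated body, which begins on that strand at 163315145. Likewise the start used for Tbx4 (85896765, plus strand) lies inside a body that begins at 85886367. These windows, with the lowest CpG counts, belong to internal starts, and CpG before the outer starts was not counted. The sequence TATAAA, read on either strand, was present in the windows of Twist1, Shox2 and Tbx4 and in 12.5% of all windows.

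Prrx1, Twist1 and Tbx15 were the 3 highest of the 10 genes in each of the 4 tables. Levels here are FPKM, fragments per kilobase of transcript and per mapped fragment total, so that genes of different length can be set side by side within a table. The tables were normalized separately, and levels across them are given side by side only. Spans across tables are of the values as deposited and depend on that scaling. Prrx1, the general limb mesenchyme factor, had 42.3 in the pooled WT table, 43.7 in pooled KO, 98.8 in unnumbered WT and 81.1 in unnumbered KO. It was first in all 4 tables, above 80.3% to 93.7% of the genes with an FPKM of at least 1, and its highest value was 2.33 times its lowest. Twist1, a basic helix-loop-helix factor of mesenchyme, had 15.1, 25.7, 38.7 and 27.9 in the same order. Tbx15 had 8.75 and 29.2 in the pooled pair and 42.7 in both unnumbered tables. It ranked below Twist1 in pooled WT and above it in the other three tables. Tbx18 had the smallest span of the 10 as deposited and stayed at a low level, with 7.23, 6.46, 4.81 and 8.87, a range of 1.85 times.

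**Figure D1:**
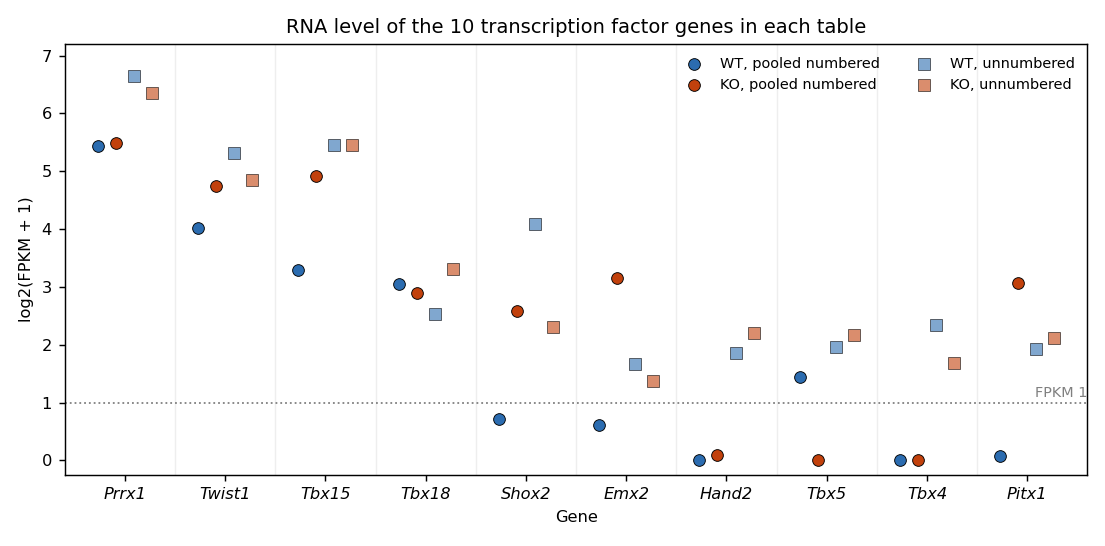
RNA level of each of the 10 genes as log2(FPKM + 1) on the vertical axis, 1 point per table (circles pooled numbered tables, squares unnumbered samples, blue WT, orange KO), with a dotted line at an FPKM of 1. Prrx1, Twist1 and Tbx15 lie above all others in every table, and Tbx4, Hand2, Pitx1, Emx2 and Shox2 lie under an FPKM of 1 in pooled WT and above it in both unnumbered samples.

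The genes that tell forelimb from hindlimb differed between tables. Tbx5 had an FPKM of 1.71 in pooled WT and 0.00223 in pooled KO. Pitx1 showed the opposite order, with 0.0553 in pooled WT and 7.33 in pooled KO. Tbx4 was listed at 0 in both pooled tables. In the pooled WT table, Tbx5 was therefore above an FPKM of 1 and Pitx1 and Tbx4 were below it. In the pooled KO table, Pitx1 was above it and Tbx5 and Tbx4 were below it. In the unnumbered samples all 3 were present at low level in both genotypes. There Tbx5 was at 2.89 in WT and 3.47 in KO, Pitx1 at 2.82 and 3.33, and Tbx4 at 4.08 and 2.196. The KO over WT ratios of Tbx5 and Pitx1 in the unnumbered pair were 1.199 and 1.18.

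Hand2 and Shox2, which act along the axes of the limb bud, also differed between tables. Hand2 was listed at 0 in pooled WT and at 0.0696 in pooled KO, against 2.63 in unnumbered WT and 3.58 in unnumbered KO. Shox2 had 0.635 and 4.99 in pooled WT and KO, and 16.0 and 3.97 in unnumbered WT and KO. As deposited, the KO values of Shox2 were near each other in both pairs, and its lowest and highest values were both WT, 25.3 times apart. Emx2 had 0.522 in pooled WT, 7.92 in pooled KO, 2.17 in unnumbered WT and 1.59 in unnumbered KO, so that pooled KO stood above the other three tables. Its head-to-head neighbour Emx2os, an antisense RNA gene, had 0.0350, 1.01, 0.731 and 0.0849 in the same order. The labels do not say whether reads were counted by strand, and Emx2os does not overlap the Emx2 body. Shox2 overlaps the first bases of Rsrc1, and Tbx5, Tbx15 and Prrx1 overlap long noncoding RNA genes, so reads at those overlaps cannot be assigned with certainty.

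In the pooled pair, 8 of the 10 genes reached an FPKM of 1 in at least 1 genotype and 4 of these were at least 2-fold higher in KO, against 6.5% of the 11055 genes that reached it. Of the 8, 1 gene was at least 2-fold lower, against 15.7% of genes. Folds were taken on the log2(FPKM + 1) scale, which understates the change of low genes. The 4 higher genes were Pitx1 (KO minus WT 2.98), Emx2 (2.55), Shox2 (1.87) and Tbx15 (1.63), and the lower one was Tbx5 (-1.44). Twist1 (0.73), Prrx1 (0.04) and Tbx18 (-0.14) were within 2-fold. Tbx4 and Hand2 were below an FPKM of 1 in both genotypes. The median of the 8 genes was 1.18, beside 0.06 over all genes that reached an FPKM of 1. With the lower limit at an FPKM of 5, Tbx5 and Shox2 drop out, leaving 3 higher and 0 lower of 6. Summed FPKM was 948032 in pooled WT and 409078 in pooled KO. Scaling both tables to the same sum moved the median of all genes to 1.13 and added Prrx1 and Twist1 to the higher genes, for 6 of 8, while 56.9% of all genes were then at least 2-fold higher and 5.21% lower, so relative to that shift neither Prrx1 nor Twist1 stood 2-fold above the other genes. The directions of Pitx1, Emx2, Shox2, Tbx15 and Tbx5 were the same under the 2 scalings tried, and that of Tbx18, within 2-fold as deposited, was positive under both.

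In the unnumbered pair, all 10 genes reached an FPKM of 1 in both genotypes, none was at least 2-fold higher in KO (background 1.74% of 11687 genes), and Shox2 alone was at least 2-fold lower (background 3.83%). The difference of Shox2 was -1.78. Tbx18 (0.77), Tbx4 (-0.67), Twist1 (-0.46), Hand2 (0.33), Emx2 (-0.29), Prrx1 (-0.28), Tbx5 (0.20), Pitx1 (0.18) and Tbx15 (0.00) were within 2-fold. The median was -0.14, beside 0.01 over all genes. The 5 genes past 2-fold in the pooled pair thus had differences between -1.78 and 0.20 here, and Shox2 had differences past 2-fold in opposite directions. Macrophage markers differed strongly in this pair, with a summed FPKM over 9 markers of 95.4 in WT and 3.82 in KO, 8 of 9 at least 2-fold lower and 0 markers at 0 in WT. Their part in the values of the 10 genes was not tested.

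**Figure D2:**
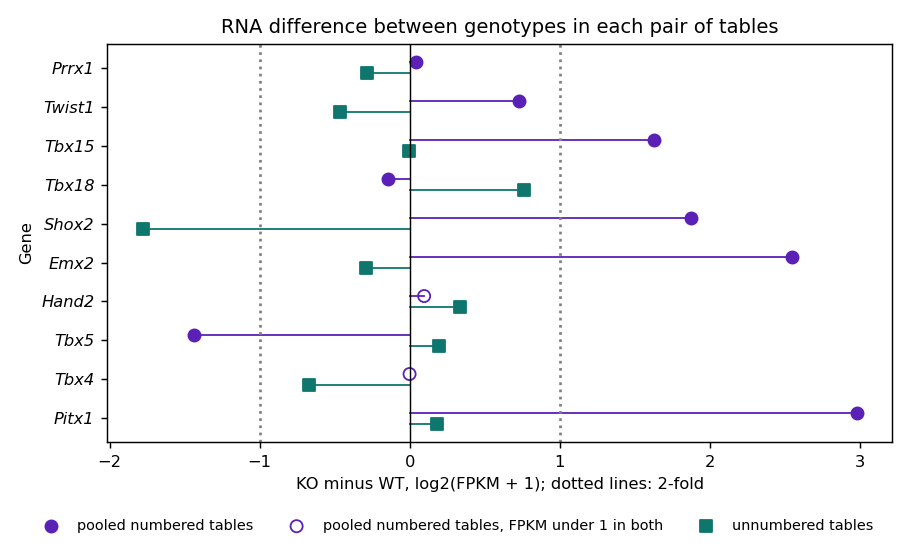
KO minus WT of log2(FPKM + 1) for each gene on the horizontal axis, circles for the pooled numbered tables (open where both genotypes were under an FPKM of 1) and squares for the unnumbered samples, with dotted lines at 2-fold. Pitx1, Emx2, Shox2, Tbx15 and Tbx5 lie past 2-fold in the pooled pair, and Shox2 alone does in the unnumbered pair, on the other side of 0.

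Other limb genes showed how far the tables differed beyond the 10. Of 17 limb ligands and antagonists, 5 reached an FPKM of 1 in the pooled pair, 2 were at least 2-fold higher in KO and 2 lower. Cyp26b1, which breaks down retinoic acid in the distal limb, had 41.8 in WT and 1.09 in KO (-4.36), Bmp4, a bone morphogenetic protein, 28.0 and 4.32 (-2.45), and Wnt5a, a ligand of limb outgrowth, 3.85 and 18.0 (1.97). In the unnumbered pair 1 of 8 was higher and 0 lower, and the largest difference was that of Rspo2, an enhancer of Wnt signalling, at 63.3 and 136 (1.09). Sonic hedgehog (Shh), Fgf4, Wnt3 and Wnt3a were listed at 0 in all 4 tables. Of 14 limb receptors and signal targets 13 were measured in each pair, with 0 higher and 1 lower in the pooled pair (Fgfr2, -1.26) and 0 higher and 2 lower in the unnumbered pair (Spry2, -1.33, and Dusp6, -1.01).

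Among 23 other limb transcription factors, 16 were measured in each pair. In the pooled pair 5 were at least 2-fold higher in KO and 3 lower, with a median of 0.82. En1, a marker of ventral limb ectoderm and of dorsal trunk dermis, had 11.3 in WT and 1.31 in KO (-2.41), and the homeobox gene Dlx5 3.95 and 0.00958 (-2.29). In the unnumbered pair 1 was higher and 0 lower, with Msx2, a homeobox gene of the limb margin, at 1.98 and 6.15 (1.26). Of 25 other mesenchyme transcription factors 17 were measured in the pooled pair, 1 higher and 4 lower, led by Prrx2, the paralog of Prrx1, at 465 in WT and 38.6 in KO (-3.56). Prrx2 and Prrx1 thus parted, since Prrx1 was at 42.3 and 43.7 in the same tables. In the unnumbered pair 22 were measured, 0 higher and 2 lower, led by Meox1, a somite homeobox gene, at 16.0 and 0.330 (-3.67). Of 18 transcription factors of other body regions 9 were measured in the pooled pair, 3 higher and 2 lower, and 4 in the unnumbered pair, 0 higher and 0 lower. In the pooled pair the list was led by Lhx8, a ventral forebrain and tooth gene (5.42 and 0.00834, -2.67), Wt1, a gene of kidney and mesothelium (0.221 and 4.65, 2.21), and Tbx20, a heart gene (2.14 and 0.00860, -1.64).

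The cultures carried fibroblast markers. Col1a1, Col1a2, Vim and Fn1 were above an FPKM of 500 in all 4 tables, while Thy1, a surface marker of many fibroblasts, had 0.141 and 0.100 in the pooled tables and 210 and 120 in the unnumbered ones. Of 9 fibroblast markers 8 were measured in the pooled pair, 1 at least 2-fold higher in KO and 2 lower. In the unnumbered pair 9 were measured, 0 higher and 3 lower. Pdgfra had 4.97 in WT and 20.8 in KO in the pooled pair (1.87). It had 23.3 and 2.37 in the unnumbered pair (-2.85), past 2-fold in the same directions as Shox2. Epithelial markers stayed under a summed FPKM of 0.7 over 6 genes in every table, endothelial markers under 1.5 over 4 genes, and of 8 skeletal muscle markers Myog and Myf5 were listed at 0 in all 4. Of that list 2 were measured in the pooled pair, 1 at least 2-fold higher in KO and 1 lower, and 3 in the unnumbered pair, likewise 1 higher and 1 lower. Des, an intermediate filament of muscle, had 2.70 in WT and 57.1 in KO in the pooled pair (3.97) and 21.7 and 5.07 in the unnumbered pair (-1.90), past 2-fold in the same directions as Shox2 and Pdgfra. Acta1, the skeletal muscle actin, had 70.5 and 6.61 (-3.23), then 10.4 and 43.8 (1.97). Smooth muscle markers were at least 2-fold higher in KO for 3 of 4 genes in the unnumbered pair and for 0 of 3 measured in the pooled pair. Cartilage markers were at least 2-fold lower for 2 of 2 measured in the pooled pair and for 0 of 3 in the unnumbered pair. The part of these cell types in the values of the 10 genes was not tested. Of the candidates among other limb and mesenchyme transcription factors (47 genes), those nearest to 9 of the 10 genes by Euclidean distance of log2(FPKM + 1) over the 4 tables were Meox2 for Tbx4 (distance 0.49) and Hand2 (0.87), Tbx2 for Tbx5 (0.71), Foxc1 for Twist1 (0.95), Tbx15 (1.30) and Prrx1 (2.89), Meis1 for Tbx18 (1.02), Msx2 for Pitx1 (1.23) and Irx3 for Shox2 (1.78). The second nearest were Alx1 for Tbx4 and Hand2, Msx1 for Tbx5, Zeb1 for Tbx15 and Twist1, Irx5 for Tbx18, Lmx1b for Emx2, Lhx9 for Shox2 and Twist2 for Prrx1. Tbx2, the linked relative of Tbx4, followed Tbx5 with 2.98 in pooled WT and 0.0975 in pooled KO, and 3.47 and 2.46 in the unnumbered samples. With 4 tables this likeness is a description only.

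The chromatin of the gene bodies divided the 10 genes into 3 under H3.3-Flag and 7 under H3K27me3 in WT, with 0 under both, as few genes were at all (1.62% of protein-coding genes in WT and 1.19% in KO had both over at least 50% of the body). Prrx1, Twist1 and Tbx15 lay wholly in H3.3-Flag regions in both genotypes and had 0% of H3K27me3, while the other 7 lay wholly in H3K27me3 regions in WT and had at most 4.66% of H3.3-Flag. In KO the same held but for Emx2, which had neither mark. H3K27me3 covered at least 50% of the body in 7 genes in WT and 6 in KO, against 33.9% and 32.4% of 21631 protein-coding genes. H3.3-Flag did so in 3 genes in both genotypes, against 21.3% and 22.4% of genes. The 3 genes under H3.3-Flag were the 3 with the highest RNA in all 4 tables, although RNA and ChIP were from cultures not linked by the labels.

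**Figure D3:**
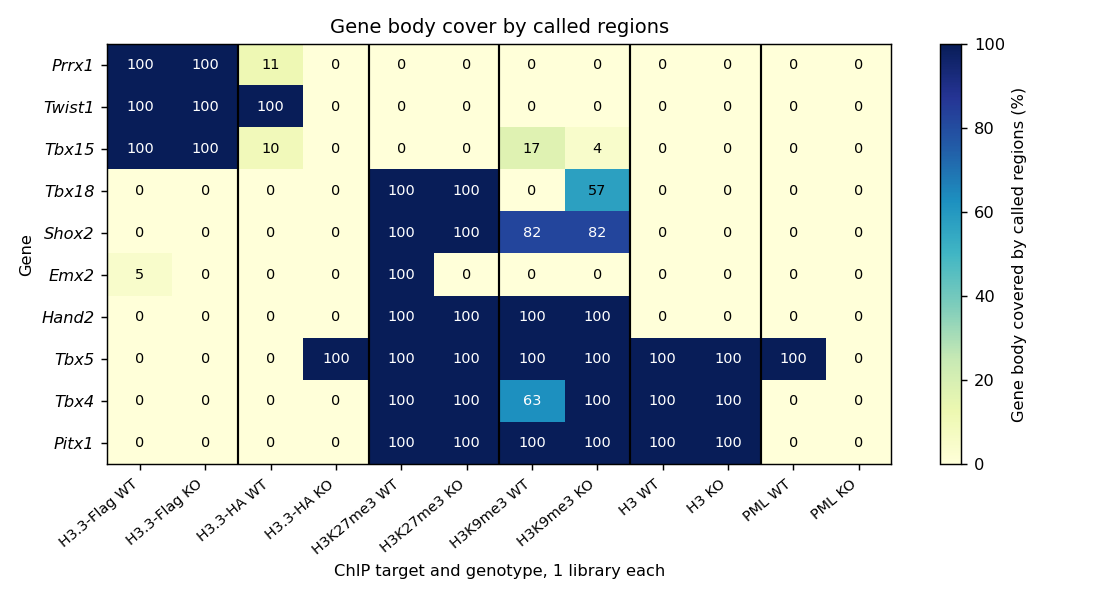
Percent of each gene body (rows) covered by called regions of each ChIP target in WT and KO (columns, 1 library each), with the rounded value in each cell. The upper 3 genes are at 100 for H3.3-Flag and 0 for H3K27me3, and the other 7 are at 100 for H3K27me3 in WT, with Emx2 at 0 in KO.

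The H3.3-Flag regions followed the bodies of Prrx1 and Tbx15 closely and ran well beyond that of Twist1. Prrx1 (chromosome 1, 163245119 to 163315145, 70.0 kb) was framed by a region of 84 kb in WT and 83 kb in KO with signals of 48.5 and 25.3. Tbx15 (chromosome 3, 99240348 to 99354260, 114 kb) lay in regions of 127 and 126 kb with signals of 29.9 and 18.7, and Twist1 (chromosome 12, 33957671 to 33959831, 2.16 kb) in regions of 14 and 20 kb with signals of 44.8 and 8.80. The signal is the authors' own value per region, and the library medians were 36.0 in WT and 15.9 in KO, so values are to be read within a library. With only the 200 Mb of highest signal in each library, Twist1 had 100% in WT and 0% in KO, and Prrx1 and Tbx15 alone were counted in KO. Twist1 lies on chromosome 12, where the signal may be on another scale than for Prrx1 and Tbx15. The nearest H3K27me3 region was 3.74 kb from Tbx15 in both genotypes, 6.67 kb from Twist1 in WT and 25.7 kb in KO, and 15.9 and 25.1 kb from Prrx1. H3.3-HA covered all of Twist1 in WT and 0% in KO, 11.4% of Prrx1 and 9.66% of Tbx15 in WT and 0% in KO. The H3.3-HA libraries were unlike. The WT library held 6730 regions over 73.6 Mb with a median signal of 16, and the KO library 1759 over 481 Mb with 1.48. Within 200 kb of the body centres, KO cover by H3.3-HA was 0% for all members but Tbx5 (73.2%), and WT cover was at most 5.25%. H3.3-HA covered at least 50% of the body in 1 of the 10 genes in each genotype, against 8.69% of all genes in WT and 27.1% in KO, and 3.02% of all genes had at least 50 percentage points less in KO, as Twist1 did, and 21.1% at least 50 more, as Tbx5 did. The single gene of the 10 under H3.3-HA in KO was Tbx5, in a region of 843 kb with a signal of 0.0380, and with a signal of at least 1 that count was 0.

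The H3K27me3 domains were far longer than most of the genes they covered. In WT they ran from 171 kb over Emx2 to 433 kb over Tbx4, and in KO from 81 kb over Tbx4 to 548 kb over Tbx18. Tbx5 (chromosome 5, 119796514 to 119885220) lay in a domain of 431 kb with identical ends in both genotypes, and signals of 34.9 in WT and 60.5 in KO. The library medians were 7.4 in WT and 6.5 in KO, and signals are to be read within a library. Regions called in the H3 libraries also held Tbx5, with scores of 234 in WT and 486 in KO. Pitx1 (chromosome 13, 55825044 to 55836190) had domains of 236 and 234 kb with signals of 65.8 and 42.4. Its WT signal was the highest of the 7 as deposited, but signals on chromosomes 10 to 19 may be on another scale. Hand2 (chromosome 8, 57320983 to 57324517) had 230 and 322 kb, Shox2 (chromosome 3, 66971723 to 66981771) 361 and 325 kb, and Tbx18 (chromosome 9, 87702800 to 87731260) 205 and 548 kb. Tbx4 (chromosome 11, 85886367 to 85916097) kept the mark over its body, but 28.9% of its WT domain was also called in KO, while this share was 94.2% to 100% for Tbx5, Tbx18, Pitx1, Hand2 and Shox2.

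Emx2 (chromosome 19, 59458690 to 59465357, 6.67 kb) had 100% H3K27me3 cover in WT and 0% in KO, while the body cover of the other 9 genes was equal in both genotypes in the regions as deposited. Of all protein-coding genes, 5.44% had at least 50 percentage points less in KO and 4.43% at least 50 more, and 2.13% went from wholly covered to 0. The WT domain of 171 kb (signal 22.8) also held Emx2os and the long noncoding RNA gene Gm33756 and reached into another, 2700089I24Rik. Of this domain 29.2% was called in KO, and the nearest KO region was 35.6 kb from the gene. The start of Emx2 lay in an H3.3-Flag region of 5 kb in WT (signal 31.4) beside its H3K27me3, and in 0 H3.3-Flag regions in KO, so that its printed promoter carried both calls in WT and neither in KO. In the pooled pair Emx2 RNA was higher in KO (0.522 and 7.92), and in the unnumbered pair it was not (2.17 and 1.59). The 281 measured genes with at least 50 points less H3K27me3 in KO had a median RNA difference of -0.14 in the pooled pair, with 20.6% at least 2-fold higher and 29.2% lower, beside 20.3% and 20.0% of the 706 genes that had at least 50% in both genotypes and 6.47% and 15.3% of all protein-coding genes. In the unnumbered pair 332 such genes had a median of -0.22, with 4.52% higher and 15.1% lower, beside 2.87% and 14.3% of 905 genes with the mark in both genotypes and 1.47% and 3.54% of all. When only the 200 Mb of highest signal were kept in each library, Emx2 had no H3K27me3 in either genotype, so its difference was then 0, while Tbx4 had 0% in WT and 100% in KO. Both genes lie on chromosomes 10 to 19, where the signal may be on another scale, so this ranking may mix scales.

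**Figure D4:**
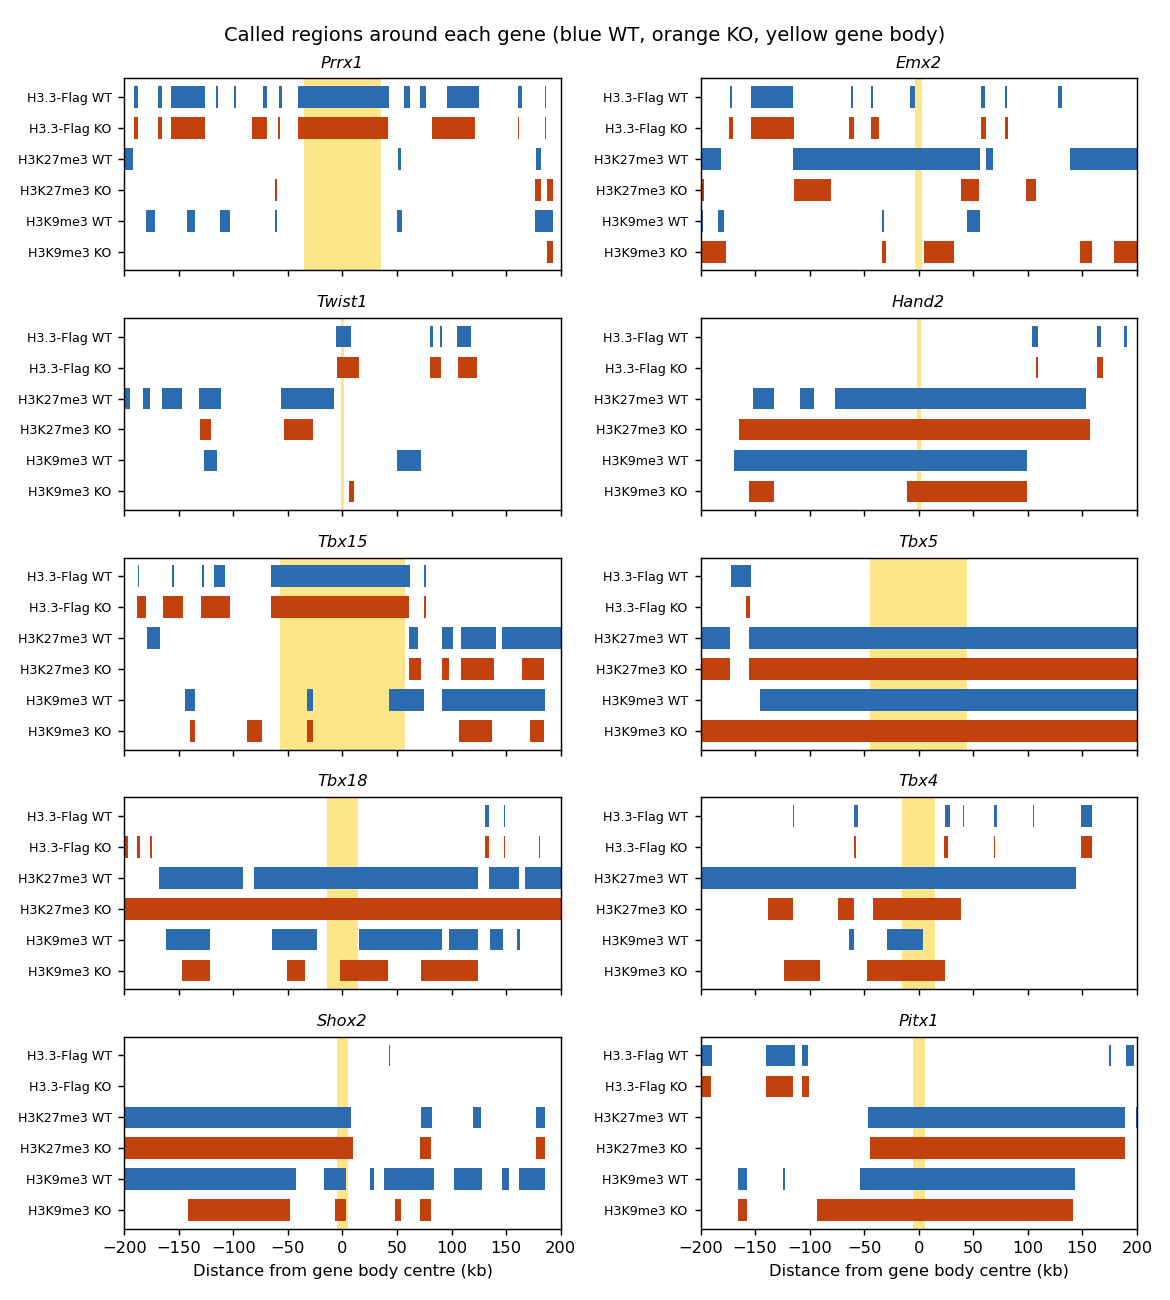
Called regions of H3.3-Flag, H3K27me3 and H3K9me3 in WT (blue) and KO (orange) within 200 kb of the centre of each gene body (yellow), by genome direction, with distance in kb on the horizontal axis. H3.3-Flag regions match the bodies of Prrx1 and Tbx15 and run beyond that of Twist1. Long H3K27me3 domains span the other 7 in WT, and the domain over Emx2 is broken in KO.

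H3K9me3 lay on many of the same bodies as H3K27me3. It covered at least 50% of 5 genes in WT (19.5% of all genes) and 6 in KO (25.3%), and each of these also had at least 50% of H3K27me3 in the same genotype. Among all genes with at least 50% of H3K27me3, 27.2% in WT and 54.8% in KO had at least 50% of H3K9me3 as well. Tbx5, Pitx1 and Hand2 were wholly covered in both genotypes, and Shox2 had 82.4% in both. The region over Tbx5 was 429 kb long in WT and 2703 kb in KO. Tbx4 had 62.7% in WT and 100% in KO, and Tbx18 0% and 57.1%. Tbx18 was thus the 1 gene of 10 with at least 50 percentage points more in KO, against 13.1% of all genes, and 0 of 10 had as much less, against 7.78%. With 5 kb flanks the gain of Tbx18 was 44.2 points, and Shox2 had 66.2% in WT and 49.9% in KO. Within 200 kb of the body centre, H3K9me3 cover was 50% in WT and 34.75% in KO around Tbx18. Around Hand2 it was 67.25% and 33.25%, and around Shox2 70.6% and 29.75%. The same cover was lower in KO around Tbx15, Prrx1 and Twist1 too, and higher around Tbx4, Tbx5, Pitx1 and Emx2. Tbx15 had 16.9% in WT and 4.39% in KO, and Prrx1, Twist1 and Emx2 had 0% in both. The WT signals, beside a library median of 3.83, were 0.677 over Hand2, 1.24 over Pitx1, 2.49 over Tbx4, 2.95 over Shox2 and 4.11 over Tbx5, and the KO signals of the 6 genes were 5.23 to 16.4, beside a library median of 8.52. With a signal of at least 3, Tbx5 alone remained in WT, and all 6 in KO.

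Tbx5 was the single gene of the 10 inside a PML domain of WT, against 12.2% of all genes with at least 50% of the body inside. That domain ran over 370 kb, from 119710001 to 120080000, and lay within the H3K27me3 domain of 431 kb. The other 9 genes were 270 kb (Tbx15) to 10919 kb (Emx2) from the nearest WT domain. In KO none of the 10 was in a PML region, against 1.38% of genes. Tbx5 RNA was lower in KO in the pooled pair and 1.199 times WT in the unnumbered pair. Tbx5, Tbx4 and Pitx1 were also wholly inside regions called in the H3 libraries of both genotypes (23.7% of all genes in WT and 35.5% in KO), which for Tbx5 spanned 8740 kb in WT and 11100 kb in KO. The H3 score of the region holding Tbx5 was 234 in WT and 486 in KO, beside library medians of 11.6 and 11.4. The KO score was the highest of its H3 library. Without Tbx5, Tbx4 and Pitx1, H3K27me3 covered 4 of 7 genes in WT and 3 of 7 in KO, H3K9me3 2 and 3, and H3.3-Flag 3 and 3. The part of the H3 calls in the cover of these 3 genes was not tested.

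Genes under H3K27me3 in the ChIP libraries seldom reached an FPKM of 1 in the RNA tables, although the labels do not link the cultures. The position genes in that class stood high in it in the unnumbered samples. Protein-coding genes were classed by which of H3.3-Flag and H3K27me3 covered at least 50% of the body in the same genotype. In unnumbered WT 18.1% of the genes with H3K27me3 alone reached an FPKM of 1, and all 7 of the position genes in that class did, with 2.17 to 16.0, above 87.4% to 97.3% of the class. In unnumbered KO 13.5% of the class reached it, and all 6 position genes did, with 2.196 to 8.87, above 90.6% to 96.2% of the class. Any gene that reached an FPKM of 1 stood above all genes of the class that did not, so these shares partly restate the counts. Emx2, in KO in the class with neither mark, was above 39.0% of that class in the unnumbered sample and 67.8% in the pooled table. In pooled WT, 11.6% of the class did and so did 2 of 7 position genes, Tbx18 and Tbx5. In pooled KO, 10.6% of the class did and so did 3 of 6, Pitx1, Tbx18 and Shox2. A bulk table cannot tell a few cells with much RNA from many cells with little. In the class with H3.3-Flag alone 91.4%, 90.9%, 93.0% and 91.5% of genes reached an FPKM of 1 in pooled WT, pooled KO, unnumbered WT and unnumbered KO, with medians of 19.2, 17.9, 19.4 and 19.8. Prrx1 was above 68.8% to 87.7% of that class. Tbx15 was above 30.7% of it in pooled WT and 64.8% to 72.9% in the other tables, and Twist1 above 44.6% to 70.4%.

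**Figure D5:**
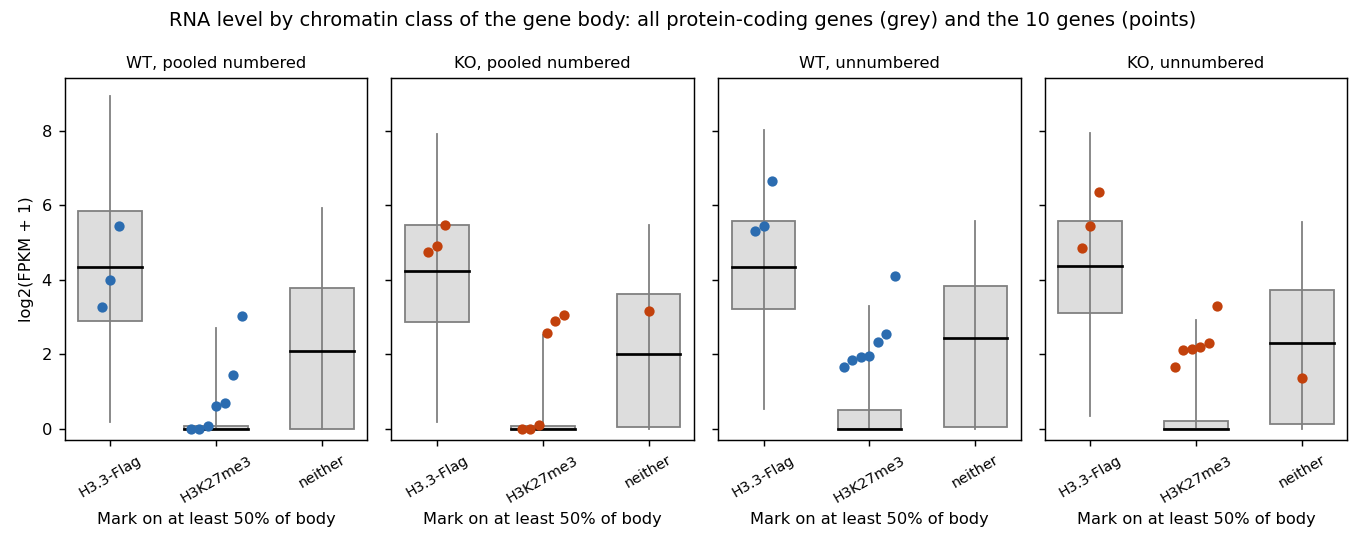
RNA level as log2(FPKM + 1) in each table for protein-coding genes by the mark that covered at least 50% of the body in the same genotype (H3.3-Flag alone, H3K27me3 alone, or neither), with boxes from the 25th to the 75th percentile, a line at the median, whiskers from the 5th to the 95th percentile and the 10 genes as points. The 3 H3.3-Flag genes lie among their class, and the genes under H3K27me3 lie above the box of their class in both unnumbered samples.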

How the data were processed

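RNA values were FPKM as deposited by the authors, 1 per gene and table. Bowtie 1.0.0, TopHat2 2.0.8b, Cufflinks 2.2.1, Cuffdiff 2.2.1 and mm10 are listed, without roles, by the submitters' processing notes, and no source used here names a caller of regions. The deposited region lists held, per region, a signal (H3.3, H3K27me3, H3K9me3) or a score (H3, PML) made by the authors. Signal times the number of 1 kb bins was whole on chromosomes 1 to 9 and X (100% of regions) but on 3.62% to 30.4% of regions on chromosomes 10 to 19. Signal minima and the ranking for the 200 Mb of highest signal may therefore differ between Tbx4, Twist1, Pitx1 and Emx2 and the other members. Left out were 267 or 271 lines a table that name several genes, and 127 or 137 names found on several lines. Of 22593 genes, 92.4% matched a RefSeq GRCm38.p6 symbol on chromosomes 1 to 19 and X. Each difference is log2(FPKM + 1) in KO less that in WT, for genes with FPKM of at least 1 in either genotype, and 2-fold (a difference of 1) was a description, since no replicate values were available for a test. Body cover was the share of annotated bases in merged regions, and 50% or more was counted. All 10 members are named, with the 2 nearest genes by distance and up to 3 genes per further list with the largest difference, apart from some that are not reported here. Genes outside that rule (Thy1, Shh, Fgf4, Wnt3, Wnt3a, Col1a2, Vim, Fn1, Myog, Myf5, and Col1a1 in the unnumbered pair) were named after their values were seen. Members and lists were chosen with earlier results of these data known. Scripts used Python 3.11.15, numpy 2.4.6, pandas 2.3.3 and matplotlib 3.10.9, and cover and folds were tested on simulated data. Alternatives were the pseudocount, the FPKM minimum, 2 scalings, signal minima, the 200 Mb of highest signal, 5 kb flanks and 2 kb around the start.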

Additional observations from a re-analysis of the deposited data

Results flagged for a closer look

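Shox2 was past 2-fold in opposite directions in the 2 pairs of tables, at 1.87 in the pooled numbered pair and -1.78 in the unnumbered pair (KO minus WT, log2(FPKM + 1)), with 1 value per genotype and pair. The difference between the pairs was not tested. Of 10671 genes measured in both pairs, 112 (1.05%) were past 2-fold in opposite directions, 71 of them in the direction of Shox2.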

How the results depend on the processing

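No paired analysis was possible because the numbered replicates were pooled into 1 table per genotype and no other group had more than 1 sample. For the same reason no replicate could be left out. With an FPKM minimum of 5, the count of members at least 2-fold lower in KO in the pooled pair was 0. Signal settings moved the cover counts most. With the 200 Mb of highest signal in each library, H3K27me3 covered 3 members in WT (4 in KO), H3K9me3 0 in WT and 1 in KO, and H3.3-HA 0 in KO, while the WT H3.3-HA library held less than 200 Mb and was not run. With a signal of at least 3, H3K9me3 covered 1 member in WT, and H3.3-HA in KO went to 0 with a minimum of 1 or 3. Around the start, known for 7 members, H3K9me3 covered 2 in WT and 3 in KO, and H3.3-HA 0 in KO. Tbx5, Tbx15 and Pitx1 had no start entry and could not be counted. Of the H3K9me3 genes with an entry, Shox2 alone dropped out (5.75% in both genotypes). Tbx5, the single H3.3-HA gene in KO, had none, so that 0 does not describe it. With 5 kb flanks, H3.3-HA covered 0 in WT. Without the 3 members in H3 regions, an alternative chosen after seeing the data, H3K27me3 covered 4 in WT and 3 in KO, H3K9me3 2 and 3, and H3.3-HA 0 in KO. Counts of H3.3-Flag were within 1.5 times in all of these, but not always of the same genes: the 200 Mb setting dropped Twist1 in KO (2 left). Around the start the WT genes were Prrx1, Twist1 and Emx2, with Tbx15 not counted for lack of an entry. Scaling the pooled KO table to the upper quartile of WT moved the higher share of all genes past 2-fold from 29.3% to 48.3%, and scaling to equal sums to 91.6%. No member past 2-fold changed direction in any alternative run. Causes were not tested. Read depth is unknown, so no limit of detection can be given for a gene at 0.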
